A study of Bos taurus with 9 samples.

Results

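Transcripts of 6 bovine genes for growth factors and related secreted proteins of the ovarian follicle were followed in metaphase II oocytes: GDF9, BMP15, OOSP2, BMP6, KITLG and FGF8. They were taken by gene symbol and are 6 of the 17852 genes in the deposited table. The oocytes came from cattle (Bos taurus, female germ cells) and had reached metaphase II, the stage of the ovulated egg before sperm entry. The 3 groups of 3 libraries each were oocytes given microplastics and taurine, an amino sulfonic acid (Tau in the labels), oocytes given microplastics alone (MPs), and control oocytes (Con). The labels give no dose, exposure time, breed, animal age or number of oocytes per library, nor whether libraries sharing a group were drawn from different cows or culture dishes. The p-values therefore measure only the spread between these libraries, which may be technical.

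A growing oocyte directs the somatic cells around it through secreted proteins. GDF9 and BMP15 are sister proteins of the TGF-beta family that are made almost solely by oocytes, can pair into a heterodimer, and act on the receptors of cumulus and granulosa cells to promote their proliferation, glycolysis and the expansion of the cumulus matrix. Loss of either one disturbs fertility in sheep. BMP6 is a further TGF-beta family ligand made by oocytes and by some follicle cells. In mice FGF8 acts together with BMP15 on cumulus glycolysis. KITLG encodes KIT ligand, which is mainly a granulosa product that signals to the receptor KIT on the oocyte, so it belongs to the same conversation in the opposite direction. OOSP2 encodes a small secreted protein of oocytes related to the placental protein PLAC1, and RefSeq lists OOSP1 as another name of the bovine gene.

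Libraries held 21.17 to 22.74 M estimated reads. All 10 oocyte markers were detected and tested, with a summed level of 69750 to 96560 CPM (reads of a gene scaled to a fixed library total) in taurine libraries, 30950 to 38560 CPM in microplastics libraries and 75020 to 101800 CPM in control libraries, BTG4 being the most abundant. Of 17 cumulus and granulosa markers matched by symbol, 12 were tested, with summed levels of 516.8 to 566.8, 418.2 to 518.1 and 510.8 to 611.3 CPM in the same order, STAR being the most abundant. Of these 12 markers 5 fell and 0 rose with microplastics against control, where 14.7% of all genes were lower and 9.68% higher. INHA, among those 5, had only 0 to 2 reads in the microplastics libraries. Of the 10 oocyte markers 5 fell and 3 rose in the same comparison. With taurine against microplastics alone 4 of those 10 rose and 3 fell, where 10.1% of all genes were higher and 4.13% lower. Of the 12 tested cumulus and granulosa markers 4, INHA among them, rose and 0 fell with taurine against microplastics alone. FSHR, a defining granulosa receptor, had 2 reads in taurine 2 and 0 in the other 8 libraries, and AMH, a granulosa hormone, had 0 to 10 reads in taurine, 0 in microplastics and 0 to 2 in control libraries. CYP19A1, the granulosa aromatase, had reads in all 9 libraries, 19 to 21 in taurine, 10 to 25 in microplastics and 15 to 19 in control libraries. Both tested erythroid markers fell with microplastics, with summed levels of 17.3 to 23.9 CPM in taurine, 10.6 to 17.7 CPM in microplastics and 31.0 to 67.2 CPM in control libraries. Of 2 tested leukocyte markers CD3E fell with microplastics, with sums of 4.01 to 5.18, 3.21 to 4.31 and 5.94 to 7.35 CPM in the same order. With libraries scaled to their size alone, 4 oocyte markers fell and 3 rose with microplastics against control. Lower calls then held for 5 cumulus and granulosa, 1 erythroid and 0 leukocyte markers, where 6.63% of all genes were lower. For taurine against microplastics alone, 2 oocyte markers then rose and 3 fell. Of the cumulus and granulosa markers 3 rose and 0 fell, where 4.55% of all genes were higher and 18.8% lower. None of 2 tested theca and 2 tested endothelial markers was called with microplastics against control by edgeR, DESeq2 or limma-voom. EdgeR called 24.3% of all genes in that comparison, and 0 of these markers had an unadjusted p under 0.05. With so few markers, these counts say little. Over all matched theca and stroma markers the sums were 8.79 to 61.9 CPM in taurine, 14.15 to 17.97 CPM in microplastics and 7.95 to 17.9 CPM in control libraries. For endothelial markers they were 19.5 to 29.5, 18.4 to 29.8 and 19.4 to 37.4 CPM in the same order. The part of other cell types in the results that follow was not tested. Taurine 3 and control 3 stood apart from their groups on the first principal component, which held 46.2% of the variance. Taurine 3 scored 50.96 there, near control 1 and control 2 at 57.0 and 50.64, whereas control 3 scored 4.86, near taurine 1 and taurine 2 at -7.05 and 3.36. The microplastics libraries scored -60.77 to -44.69. In RNA from whole oocytes, fewer transcripts per cell and fewer contributing cells cannot be told apart.

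Per transcript length, OOSP2 was the most abundant of the members and one of the most abundant transcripts of these oocytes. It reached 18670, 14365 and 11573 TPM (transcripts scaled by length to a fixed total per library) in the taurine libraries 1 to 3, 15721, 11599 and 11597 TPM in the microplastics libraries and 19222, 15821 and 21407 TPM in the control libraries, and ranked between the 4th and the 7th of all 17852 genes in each library. BMP15 followed at 2253 to 3462 TPM with taurine, 2710 to 4131 TPM with microplastics and 2484 to 3491 TPM in control, at rank 23 to 52. GDF9 lay at 437 to 506 TPM with taurine and 506 to 548 TPM with microplastics, and at 1481, 438 and 596 TPM in the control libraries 1 to 3. BMP6 had 12.8 to 40.1 TPM and KITLG 2.61 to 10.5 TPM over the 9 libraries. The order OOSP2, BMP15, GDF9, BMP6, KITLG, FGF8 was the same in each of the 9 libraries, and the ranges of neighbours in that order did not overlap.

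FGF8 was close to absent. It had 5, 1 and 0 estimated reads in the taurine libraries, 1, 1 and 0 in the microplastics libraries and 4, 0 and 0 in the control libraries. A count of 0 allows up to 3 reads, or 0.132 to 0.142 CPM in these libraries, which covers counting error only. FGF8 did not pass the filter on low counts, so 5 of the 6 members were tested, and at this depth no difference between groups was detectable for it.

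**Figure D1:**
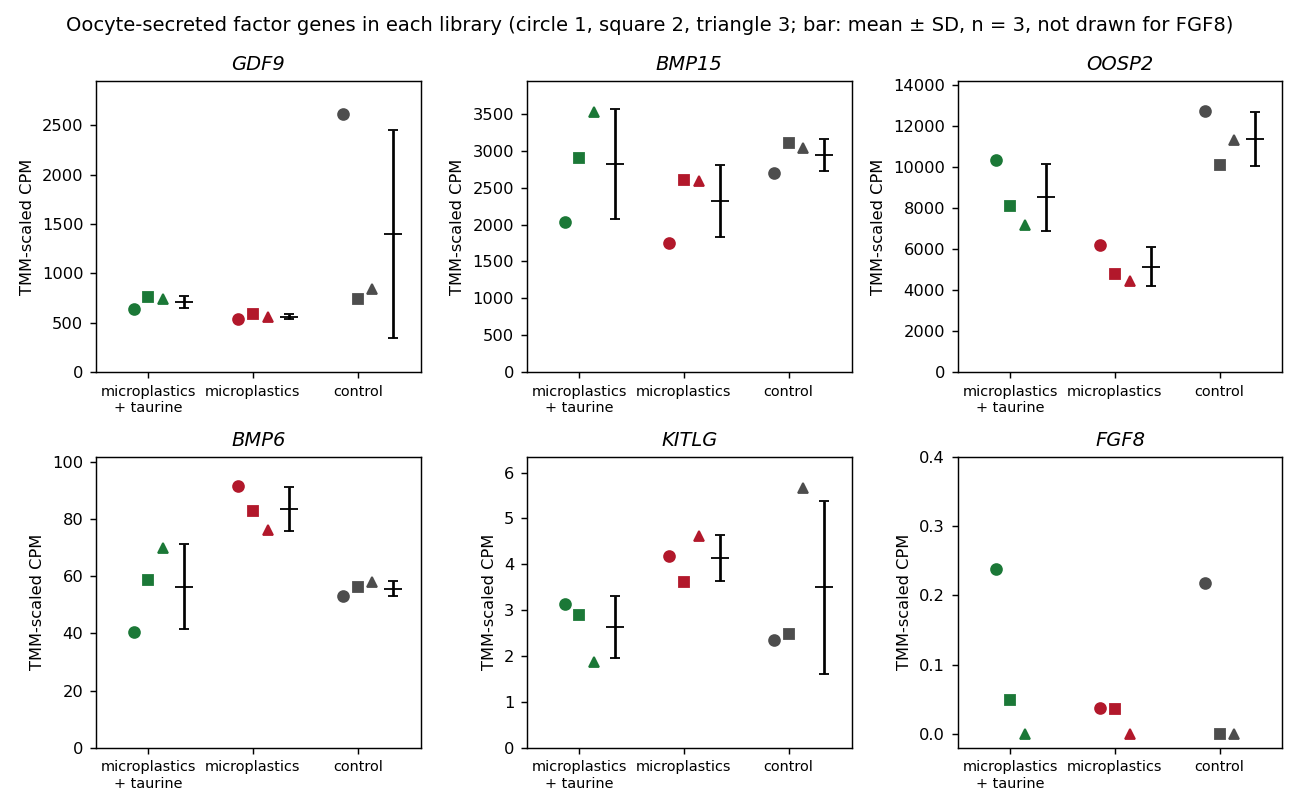
TMM-scaled CPM (vertical axis, linear) of the 6 members in each library, with groups along the horizontal axis, 1 symbol per library, and mean ± SD at the right of each group except for FGF8. GDF9 in control 1, at 2616 CPM, stands far above the other 8 libraries, and OOSP2 in each microplastics library lies below each control library.

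Oocytes given microplastics were set against control oocytes first. Levels are given as CPM with TMM factors, which scale libraries on the bulk of genes, and folds and adjusted p-values come from edgeR's quasi-likelihood test with Benjamini-Hochberg adjustment over 13206 genes. Of the 5 tested members OOSP2 and GDF9 fell, 0 rose and 3 did not pass (3 had an unadjusted p under 0.05, and DESeq2 and limma-voom each called 3, BMP6 being the third). Over all genes tested edgeR called 24.3% in that comparison, 9.68% higher and 14.7% lower. DESeq2 and limma-voom each called more genes in total than edgeR did. With libraries scaled to their size alone, OOSP2 fell and BMP6 rose, against 37% of all genes called, 30.3% higher and 6.63% lower.

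OOSP2 held 6205, 4791 and 4419 CPM in the microplastics libraries 1 to 3, against 12716, 10075 and 11336 CPM in the control libraries. The highest microplastics library was well below the lowest control library. OOSP2 fell to 5138 ± 943 CPM with microplastics, against 11376 ± 1321 CPM in control (SD, n = 3 each), a log2 fold change of -1.15 ± 0.19 (SE, edgeR adjusted p = 0.00149). The call was kept in all 9 fits that left out 1 library, with log2 values of -1.29 to -1.03. With scaling by library size only OOSP2 still fell, by 0.66 on the log2 scale (adjusted p = 0.0221). Its share of all reads was 0.777%, 0.581% and 0.549% with microplastics, against 1.06%, 0.856% and 1.10% in control.

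GDF9 held 533, 586 and 560 CPM in the microplastics libraries, against 2616, 743 and 844 CPM in the control libraries 1 to 3. The groups did not overlap, but control 2 and control 3 lay close above the microplastics libraries and control 1 lay 3.10 times above the next highest of all libraries. The means were 559.5 ± 26.4 CPM with microplastics and 1401 ± 1054 CPM in control (SD, n = 3 each), and the log2 fold change was -1.32 ± 0.38 (SE, edgeR adjusted p = 0.0277). Without control 1 it was -0.51 (adjusted p = 0.071), with a mean of 793.5 CPM in control 2 and control 3. The call was lost as well without microplastics 1 (-1.27, adjusted p = 0.0895), microplastics 2 (-1.34, adjusted p = 0.0695) or microplastics 3 (-1.31, adjusted p = 0.0853), and with scaling by library size only (-0.81, adjusted p = 0.0902). Before scaling, the estimated reads were 14123, 16165 and 15800 in the microplastics libraries against 48046, 14067 and 17696 in the control libraries, so that control 2 had fewer GDF9 reads than any microplastics library.

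BMP15 held 1755, 2608 and 2590 CPM in the microplastics libraries, against 2698, 3104 and 3038 CPM in the control libraries. The groups did not overlap, yet the gap between microplastics 2 and control 1 was small. The log2 value of -0.35 ± 0.22 did not pass (SE, edgeR adjusted p = 0.256) and stood at 0.13 under library size scaling (adjusted p = 0.615).

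BMP6 stood on the other side of the control libraries, with 91.7, 82.8 and 76.1 CPM with microplastics, against 52.9, 56.2 and 58.0 CPM in control. Each microplastics library was above each control library. The log2 fold change of 0.58 ± 0.20 lay just outside the threshold (SE, edgeR adjusted p = 0.0516). It was called with scaling by library size only (1.06, adjusted p = 0.00326), and the adjusted p ranged from 0.0181 to 0.15 over the 9 fits that left out 1 library. KITLG held 4.19, 3.62 and 4.61 CPM with microplastics, against 2.34, 2.48 and 5.67 CPM in control, where control 3 alone was above all microplastics libraries. Its log2 value of 0.24 ± 0.38 did not pass (edgeR adjusted p = 0.675).

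Libraries did not overlap between microplastics and control for 4 of 5 tested members, against 44.9% of all genes tested. Of these members 1 was higher and 3 were lower with microplastics, against 22.4% and 22.5% of all genes. Fold change also differed with transcript length in this comparison. Genes in the shortest of 5 length classes, which includes OOSP2 (590 nt, as implied by counts and FPKM), BMP15 (967 nt) and KITLG (677 nt), had a median log2 value of -0.35, and KITLG, at 0.24, lay on the other side of 0. The class of GDF9 (1574 nt) had a median of -0.06 and that of BMP6 (3410 nt) a median of 0.19. For taurine against microplastics alone the class medians ran from 0.27 for the shortest to -0.25 for the longest genes, with 0.10 in the class of GDF9 and -0.15 in that of BMP6. The part of length in the members' values was not tested.

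**Figure D2:**
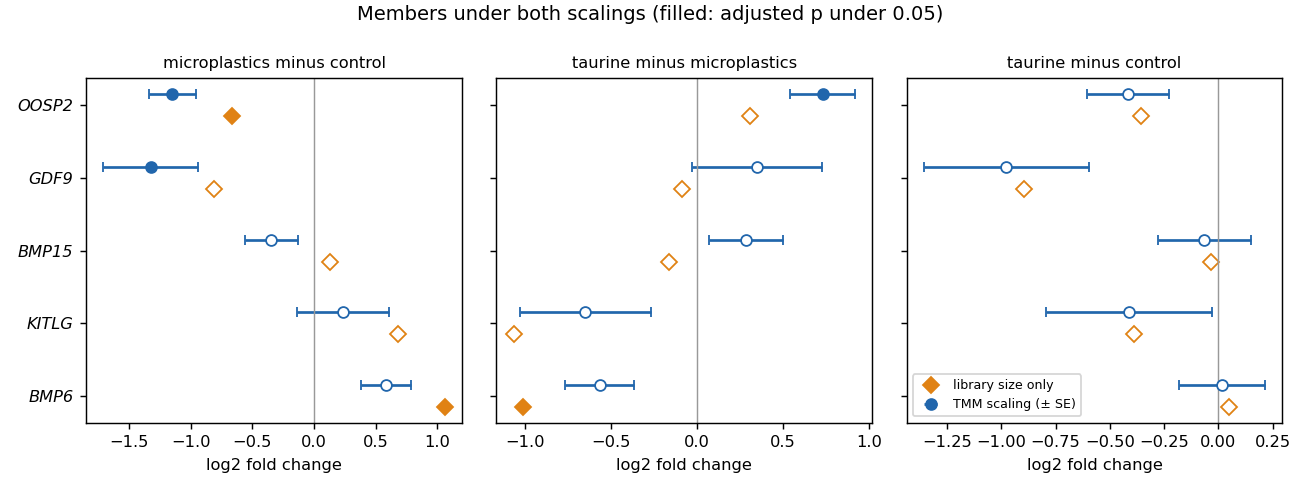
Log2 fold changes (horizontal axis) of the 5 tested members in each comparison, with TMM scaling (circles, ± SE) and with scaling by library size only (diamonds). Filled symbols passed an adjusted p under 0.05. OOSP2 lies at -1.15 and -0.66 for microplastics minus control, whereas BMP15 lies at -0.35 and 0.13, on both sides of 0.

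The second comparison set oocytes given microplastics and taurine against oocytes given microplastics alone. It shares the microplastics libraries with the first, so opposite signs in the pair of comparisons are not independent of each other. Of the 5 tested members OOSP2 rose and 4 did not pass, where 14.2% of all genes were called, 10.1% higher and 4.13% lower. Libraries of the groups did not overlap for 4 of 5 tested members, against 36% of all genes tested. Of these members 2 were higher and 2 lower with taurine, against 18.7% and 17.4% of all genes. With libraries scaled to their size alone BMP6 fell and 0 members rose, against 23.4% of all genes called, 4.55% higher and 18.8% lower.

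OOSP2 held 10322, 8087 and 7166 CPM in the taurine libraries 1 to 3, against 6205, 4791 and 4419 CPM in the microplastics libraries. Each taurine library was above each microplastics library. OOSP2 rose to 8525 ± 1623 CPM with taurine, against 5138 ± 943 CPM with microplastics alone (SD, n = 3 each), a log2 fold change of 0.73 ± 0.19 (SE, edgeR adjusted p = 0.0236). The call was lost without microplastics 2 (0.67, adjusted p = 0.0994), microplastics 3 (0.62, adjusted p = 0.121), taurine 1 (0.57, adjusted p = 0.0589) or taurine 2 (0.77, adjusted p = 0.0523), and with scaling by library size only (0.31, adjusted p = 0.253). As a share of all reads OOSP2 took 0.989%, 0.768% and 0.602% with taurine, against 0.777%, 0.581% and 0.549% with microplastics alone, and these shares overlapped.

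GDF9 held 642, 756 and 737 CPM with taurine, against 533, 586 and 560 CPM with microplastics alone. The groups did not overlap, but the log2 value of 0.35 ± 0.38 did not pass (SE, edgeR adjusted p = 0.579) and it stood at -0.09 under library size scaling (adjusted p = 0.872). Over the 9 fits that left out 1 library the adjusted p was 0.155 to 0.734. BMP15 held 2037, 2900 and 3520 CPM with taurine, against 1755, 2608 and 2590 CPM with microplastics alone, and the groups overlapped. Its log2 value of 0.28 ± 0.22 did not pass (adjusted p = 0.411) and was -0.16 with scaling by library size only (adjusted p = 0.55).

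BMP6 held 40.6, 58.7 and 69.9 CPM with taurine, against 91.7, 82.8 and 76.1 CPM with microplastics alone. Taurine 3 came closest to the microplastics libraries and taurine 1 lay farthest below them. The log2 value was -0.57 ± 0.20 (SE, edgeR adjusted p = 0.0806). It was called with scaling by library size only (-1.01, adjusted p = 0.00679), without taurine 3 (-0.75, adjusted p = 0.0422), and without control 3 and taurine 3 together (-0.76, adjusted p = 0.0263), the last of these chosen after seeing the data. KITLG held 3.14, 2.90 and 1.86 CPM with taurine, all below the 4.19, 3.62 and 4.61 CPM with microplastics alone, and its log2 value of -0.65 ± 0.38 did not pass (adjusted p = 0.279).

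BMP6 was the only member with more than 1 transcript model, and its 3 models are listed separately in the deposited table. The main one took 80.9% to 85.1% of BMP6 reads with taurine, 84.2% to 86.4% with microplastics and 88.8% to 93.7% in control. A second one, of nearly the same length (3424 nt against 3419 nt), took 15.995%, 18.2% and 14.3% with taurine and 15.3%, 14.8% and 12.9% with microplastics, against 8.47%, 5.47% and 10.7% in control. The lowest of these 6 exposed libraries was thus above the highest control library. The deposited counts of these models are not whole numbers, so the split is an estimate, and no test was made of it.

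The third comparison asked how far oocytes given microplastics and taurine stood from control oocytes. None of the 5 tested members was called, and all 5 overlapped between the groups, where 9.15% of all genes did not (4.59% higher, 4.57% lower). GDF9 and OOSP2, 2 of them, were under an unadjusted p of 0.05, and DESeq2 and limma-voom called 0 of them too. Over all genes 0.00757% were called by edgeR, that is 1 gene with no symbol in the RefSeq table (gene ID 539802, singled out after its values were seen), against 5 by DESeq2 and 753 at an unadjusted p under 0.05. OOSP2 averaged 8525 ± 1623 CPM with taurine and 11376 ± 1321 CPM in control (SD, n = 3 each), and the libraries overlapped through taurine 1 and control 2. Its log2 value was -0.42 ± 0.19 (SE, edgeR adjusted p = 0.855). GDF9 averaged 711.5 ± 61.3 CPM with taurine and 1401 ± 1054 CPM in control, a log2 value of -0.98 ± 0.38 (adjusted p = 0.855) that was -0.16 without control 1. BMP15 had a log2 value of -0.06 ± 0.22, BMP6 0.02 ± 0.20 and KITLG -0.41 ± 0.38, with adjusted p-values of 0.878 to 0.993 in edgeR's test. Without control 3 and taurine 3 together, the count over all genes was 783 and KITLG stood at 0.33.

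Ratios within a library do not depend on the scaling between libraries, and GDF9 and BMP15 proteins are known to pair. GDF9 stood at 0.194, 0.161 and 0.129 times the TPM of BMP15 in the taurine libraries, 0.187, 0.138 and 0.133 times in the microplastics libraries, and 0.596, 0.147 and 0.171 times in the control libraries. Apart from control 1, the 8 libraries spanned 0.129 to 0.194. On the log2 scale the mean ratio was -2.73 ± 0.27 with microplastics and -2.02 ± 1.11 in control (SD, n = 3 each; difference -0.71, two-sided exact permutation p = 0.4).

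The ratio of OOSP2 to BMP15 was 8.29, 4.56 and 3.34 with taurine, 5.80, 3.02 and 2.81 with microplastics, and 7.74, 5.32 and 6.13 in control. Microplastics 1 overlapped the control libraries, and the taurine libraries overlapped both other groups. The log2 means were 1.87 ± 0.58 with microplastics and 2.66 ± 0.27 in control (difference -0.79, two-sided exact permutation p = 0.2, n = 3 each). The ratio of OOSP2 to GDF9 was 26.0 to 42.7 with taurine, 21.1 to 31.1 with microplastics, and 13.0, 36.1 and 35.9 in control 1 to 3. Over the 9 tests of ratios the exact p-values were 0.2 to 0.8 and the adjusted ones 0.75 to 0.8. With 3 libraries against 3 an exact permutation test cannot go below 0.1, so these tests could not have passed.

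**Figure D3:**
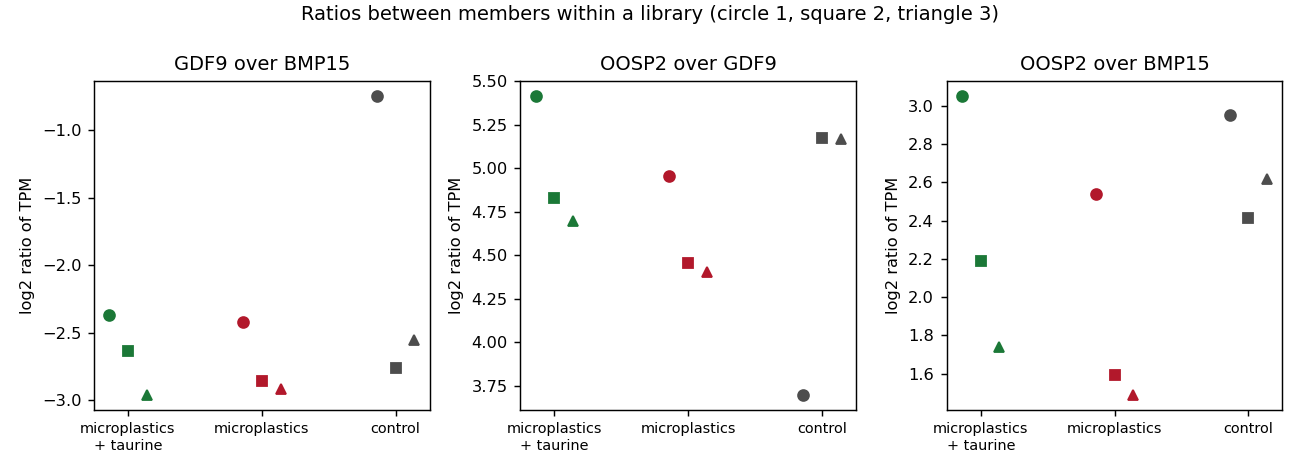
Log2 ratios of TPM between members (vertical axis) in each library, by group along the horizontal axis, 1 symbol per library. For GDF9 over BMP15 control 1 lies at -0.75, whereas the other 8 libraries lie between -2.96 and -2.37.

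The high GDF9 level of control 1 was shared by a small set of other genes. Among 8454 tested genes with a mean of at least 5 CPM, 67 (0.793%) were more than 2 times higher in control 1 than in the next highest library, against 0 to 19 genes in each of the other 8 libraries. GDF9 was the most abundant of those 67 genes, and 13 genes exceeded its ratio of 3.10. The genes with the pattern most like GDF9 over the 9 libraries, by the root mean square difference of centred log2 CPM, were LOC529036 (0.19), LOC615183 (0.19) and HINT1 (0.20), against a median difference of 0.73 over 8278 genes. HINT1, which encodes a nucleotide-binding hydrolase, held 9.22, 9.99 and 9.52 CPM with taurine, 6.30, 6.74 and 6.13 CPM with microplastics, and 38.5, 12.7 and 13.1 CPM in control 1 to 3. LOC615183 reached 137.4 CPM in control 1, against 34.1 to 39.3 CPM in the other 8 libraries.

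BMP15 and OOSP2 had other neighbours. Those of BMP15 were GRM5 (0.09), a glutamate receptor, WIF1 (0.10), a secreted inhibitor of WNT proteins, and WLS (0.11), which carries WNT proteins to the cell surface, with a median over all genes of 0.45. WIF1 averaged 41.1 CPM with taurine, 31.9 CPM with microplastics and 43.3 CPM in control. Those of OOSP2 were HINT3 (0.10), LOC530653 (0.12) and MAGOHB (0.12), a component of the exon junction complex, with a median of 0.61. MAGOHB averaged 57.9 CPM with taurine, 33.7 CPM with microplastics and 70.8 CPM in control.

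**Figure D4:**
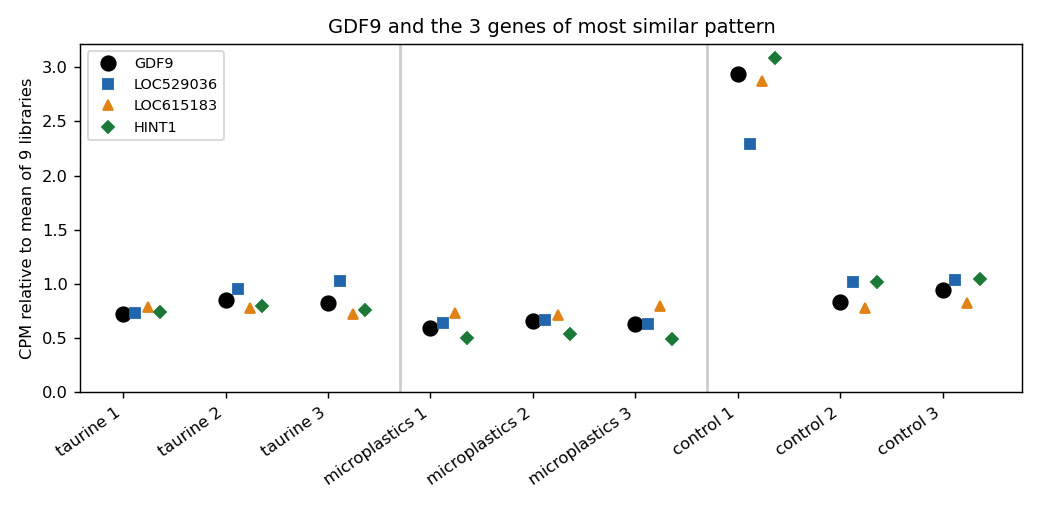
CPM of GDF9 and of the 3 genes most like it, each divided by its mean over the 9 libraries (vertical axis, from 0), with libraries along the horizontal axis. All 4 genes are highest in control 1, and GDF9, LOC529036 and HINT1 are lowest in the 3 microplastics libraries. The 3 other genes were picked for likeness to GDF9 over these libraries, so the shared pattern follows from the choice.

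The genes around these factors were read from 10 lists of ligands, receptors, SMADs, processing enzymes, antagonists, FGF8 signalling, KIT signalling, OOSP relatives, transcription factors and cumulus targets, with 78 of 107 genes tested. With microplastics against control 18 of the 78 were called, against 24.3% of all genes, and with taurine against microplastics alone 12 were called, against 14.2% of all genes. Between taurine and control 0 were called by edgeR, DESeq2 and limma-voom, and 6 had an unadjusted p under 0.05.

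PLAC1 is the relative of OOSP2 that was matched in the table. It held 7.98, 11.2 and 9.52 CPM with taurine, 1.13, 0.616 and 0.638 CPM with microplastics alone, and 18.8, 15.5 and 10.01 CPM in control. PLAC1 fell with microplastics relative to control (log2 -4.21 ± 0.35, edgeR adjusted p = 2.45e-05) and rose with taurine relative to microplastics alone (log2 3.58 ± 0.35, adjusted p = 9.34e-05). No other member of the OOSP family was matched to the table by symbol.

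Of 9 tested ligands of the TGF-beta family 2 fell with microplastics, 0 rose and 7 did not pass, with a median of 0.12 against 0.04 over all genes. With scaling by library size only 2 fell and 2 rose, with a median of 0.64 against 0.52 over all genes. These counts stand against 14.7% of all genes lower and 9.68% higher with TMM scaling, and 6.63% lower and 30.3% higher by library size only. BMP4, a bone morphogenetic protein, fell to 13.8 ± 0.27 CPM with microplastics, against 42.1 ± 9.20 CPM in control (log2 -1.61 ± 0.19, edgeR adjusted p = 0.000196), and was at 44.5 ± 2.26 CPM with taurine (log2 1.69 against microplastics alone, adjusted p = 0.000255). INHA, the inhibin alpha subunit and a granulosa marker, had 15, 8 and 168 reads with taurine, 0, 2 and 0 reads with microplastics and 11, 23 and 9 reads in control, so no fold is given. INHA passed the filter on low counts only through taurine and control libraries. It was not tested in a fit of microplastics and control libraries alone. Its calls are therefore not read as a result, though INHA is counted in the 2 ligands that fell. It was called lower with microplastics than in control (edgeR adjusted p = 0.0464) and higher with taurine than with microplastics alone (adjusted p = 0.00972). The first of these INHA calls did not hold when a microplastics or a control library, any of the 6, was dropped (adjusted p = 0.056 to 0.138). It was also lost by limma-voom (adjusted p = 0.078) and with no filter (adjusted p = 0.0932). The second did not hold without microplastics 1 (adjusted p = 0.0515).

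Of 11 tested receptors and co-receptors 2 fell with microplastics, 0 rose and 9 did not pass, where 14.7% of all genes were lower and 9.68% higher. Scaled to library size alone 1 fell and 5 rose, where 6.63% of all genes were lower and 30.3% higher. ACVR1, a type I receptor of BMPs, fell to 38.6 ± 8.84 CPM with microplastics, against 101 ± 12.2 CPM in control (log2 -1.39 ± 0.20, edgeR adjusted p = 0.000581), and rose to 76.5 ± 1.50 CPM with taurine, against microplastics alone (log2 0.99, adjusted p = 0.00575, and 0.56 with an adjusted p of 0.0605 by library size only). TGFBR2, the type II receptor of TGF-beta, was at 3.97 ± 0.46 CPM with taurine, 3.86 ± 1.06 CPM with microplastics and 7.15 ± 1.41 CPM in control, and fell with microplastics (log2 -0.89, adjusted p = 0.0443). That result did not hold by library size only (-0.39, edgeR adjusted p = 0.297) or with no filter (-0.88, adjusted p = 0.0594), nor on dropping taurine 2 (-0.89), microplastics 1 (-0.92), microplastics 2 (-1.05), microplastics 3 (-0.67), control 1 (-0.80) or control 2 (-0.82). The receptors through which GDF9 and BMP15 act were not called in either comparison with TMM scaling and all libraries. BMPR2, the type II receptor of both, stood at 28.5 ± 10.02 CPM with taurine, 31.6 ± 3.89 CPM with microplastics and 31.0 ± 3.09 CPM in control. BMPR1B, the type I receptor of BMP15, was at 21.6 ± 6.62, 33.99 ± 10.1 and 20.1 ± 11.3 CPM in the same order, and TGFBR1, the type I receptor of GDF9, at 10.005 ± 2.64, 9.75 ± 1.75 and 9.56 ± 1.77 CPM. BMPR1B was called with microplastics against control by library size only (log2 1.20, edgeR adjusted p = 0.0417) and without control 3 (1.34, adjusted p = 0.00782).

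Among 11 tested SMADs and their regulators 2 rose and 1 fell with microplastics, against 9.68% and 14.7% of all genes. Scaled to library size alone 3 rose and 1 fell, against 30.3% and 6.63% of all genes. SMAD2, which carries the signal of GDF9 receptors to the nucleus, held 224.5, 293.1 and 317.3 CPM with taurine, 131, 112 and 127 CPM with microplastics and 335.9, 311.6 and 290.5 CPM in control. It fell with microplastics (log2 -1.34 ± 0.17, edgeR adjusted p = 0.00028) and rose with taurine relative to microplastics alone (log2 1.18 ± 0.17, adjusted p = 0.000925). SMAD3, which carries the same signal, was at 5.99 ± 1.11, 6.76 ± 1.27 and 5.05 ± 2.13 CPM in taurine, microplastics and control libraries and did not pass, but was called for microplastics against control without control 3 and taurine 3 together (log2 0.83, edgeR adjusted p = 0.0336). ZFYVE9, which presents SMADs to receptors, rose with microplastics (log2 0.72, adjusted p = 0.0307), which did not hold on dropping microplastics 1 (0.79), microplastics 2 (0.74), microplastics 3 (0.68) or control 1 (0.63). SKI, a repressor of SMAD-driven transcription, rose with microplastics (log2 0.65, adjusted p = 0.0444), which did not hold on dropping taurine 2 (0.65), microplastics 1 (0.47), microplastics 2 (0.74), microplastics 3 (0.77), control 1 (0.53) or control 2 (0.71). SKI fell with taurine relative to microplastics alone (log2 -0.71, adjusted p = 0.0461), and this did not hold on dropping taurine 1 (-0.72), taurine 2 (-0.66), taurine 3 (-0.74), microplastics 1 (-0.52), microplastics 2 (-0.80), microplastics 3 (-0.83) or control 2 (-0.70).

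Of 9 tested genes that fold and cleave secreted precursors, P4HB alone was called with microplastics, where 9.68% of all genes were higher. P4HB, protein disulfide isomerase, rose to 59.3 ± 2.76 CPM with microplastics, against 33.9 ± 4.00 CPM in control (log2 0.81 ± 0.17, edgeR adjusted p = 0.00483), and was at 36.7 ± 2.34 CPM with taurine. It fell with taurine relative to microplastics alone (log2 -0.69, adjusted p = 0.0156), which did not hold on dropping taurine 2 (-0.68), microplastics 2 (-0.70) or microplastics 3 (-0.68). By library size only 4 of the 9 genes rose with microplastics, where 30.3% of all genes did. FURIN, a convertase that cleaves TGF-beta family precursors, held 15.7, 8.83 and 4.16 CPM with taurine, 13.96, 15.8 and 10.8 CPM with microplastics and 2.78, 4.12 and 14.6 CPM in control, and did not pass. Control 3 was far above the other control libraries, and without it FURIN was called with microplastics against control (log2 1.98, edgeR adjusted p = 0.00972). None of 5 tested secreted antagonists was called with microplastics against control by edgeR, DESeq2 or limma-voom, where edgeR called 24.3% of all genes. An unadjusted p under 0.05 was held by 0 of them. With so few genes, these counts say little.

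In FGF8 signalling 1 of 8 tested genes rose and 1 fell with microplastics (9.68% and 14.7% of all genes), and 2 rose and 1 fell by library size only (30.3% and 6.63% of all genes). FGFR1, a receptor of FGF8, fell to 31.9 ± 4.80 CPM with microplastics, against 68.5 ± 20.5 CPM in control (log2 -1.10 ± 0.22, edgeR adjusted p = 0.00427), and rose with taurine to 65.4 ± 4.37 CPM, against microplastics alone (log2 1.04, adjusted p = 0.00877, a call lost without microplastics 3 at 0.91). SPRY1, a feedback inhibitor of FGF signalling, rose with microplastics (log2 0.87, adjusted p = 0.0449), which did not hold on dropping taurine 2 (0.86), microplastics 1 (0.87), microplastics 2 (0.84), microplastics 3 (0.94), control 2 (0.79) or control 3 (0.77). Of 7 tested genes of KIT signalling 2 rose with microplastics and 5 did not pass, where 9.68% of all genes were higher, and 4 rose by library size only, where 30.3% were. KIT itself was at 79.8 ± 17.1 CPM with taurine, 80.1 ± 8.26 CPM with microplastics and 97.7 ± 11.97 CPM in control and did not pass. FOXO3, a transcription factor that holds follicles dormant in mice, rose with microplastics (log2 0.96, adjusted p = 0.0387), which did not hold on dropping taurine 2 (0.96), microplastics 1 (1.11), microplastics 2 (0.92), microplastics 3 (0.88), control 1 (0.80) or control 2 (0.81). PIK3CA, a kinase downstream of KIT, rose with microplastics (log2 0.70, adjusted p = 0.042), which did not hold on dropping taurine 2 (0.70), microplastics 1 (0.66), microplastics 2 (0.82), microplastics 3 (0.67), control 1 (0.57) or control 2 (0.75). PIK3CA fell with taurine relative to microplastics alone (log2 -0.79, adjusted p = 0.0379), and this did not hold on dropping taurine 2 (-0.72), taurine 3 (-0.72), microplastics 1 (-0.75), microplastics 2 (-0.90), microplastics 3 (-0.76) or control 2 (-0.79).

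**Figure D5:**
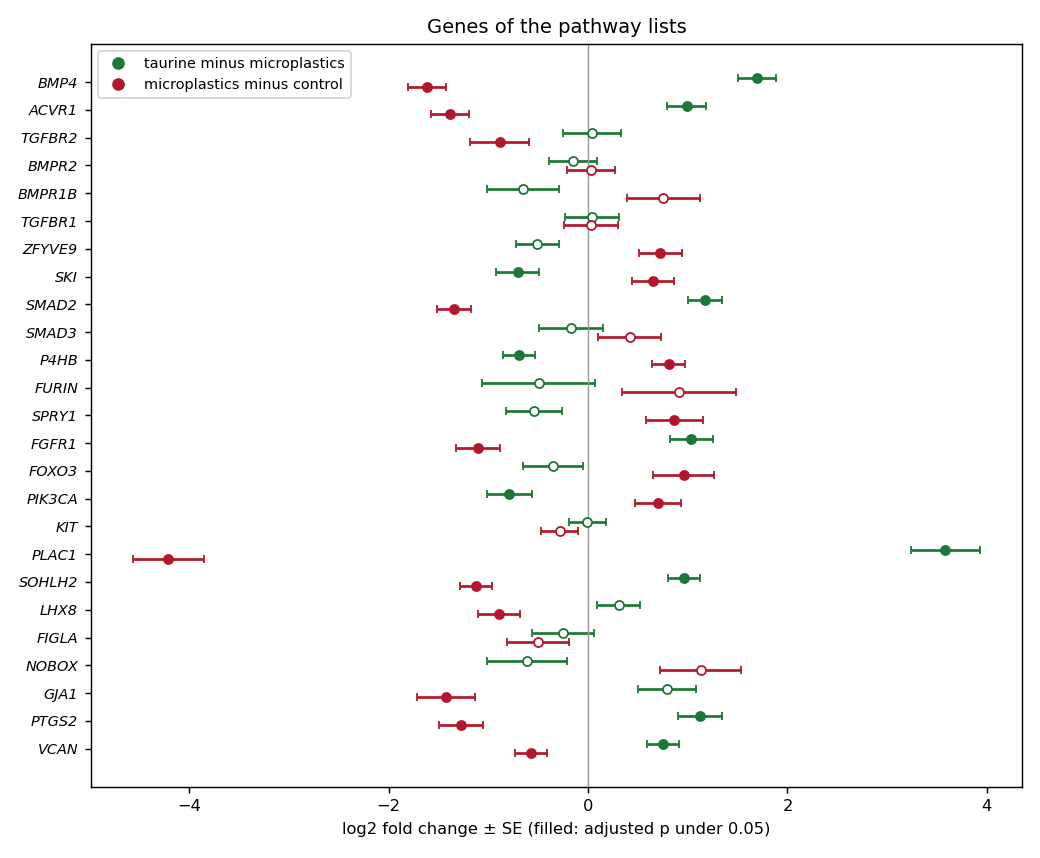
Log2 fold changes ± SE (horizontal axis) of 25 named genes of the pathway lists, for taurine minus microplastics and microplastics minus control, filled where the adjusted p was under 0.05. Both comparisons share the microplastics libraries. INHA is not drawn, and of the genes drawn PLAC1 lies farthest from 0, at 3.58 and -4.21.

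Of 7 tested transcription factors of the oocyte programme 2 fell with microplastics and 5 did not pass, where 14.7% of all genes were lower. By library size only 3 rose and 1 fell, where 30.3% of all genes were higher and 6.63% lower, so the turn of direction was also that of all genes. SOHLH2 fell to 165 ± 23.7 CPM with microplastics, against 359 ± 28.5 CPM in control (log2 -1.13 ± 0.16, edgeR adjusted p = 0.000636), and rose to 320.2 ± 26.3 CPM with taurine, against microplastics alone (log2 0.96, adjusted p = 0.00236). LHX8 fell to 141.5 ± 4.65 CPM with microplastics, against 262.5 ± 63.6 CPM in control (log2 -0.89, adjusted p = 0.0111), a call lost without control 1 (-0.68) and by library size only (-0.40), and stood at 175 ± 40.7 CPM with taurine. FIGLA was at 84.9 ± 25.5, 101 ± 22.3 and 143 ± 59.0 CPM in taurine, microplastics and control libraries. NOBOX, which activates GDF9 transcription in mice, was at 18.3 ± 8.35, 28.0 ± 4.46 and 12.8 ± 6.95 CPM in the same order, and neither gene passed (NOBOX log2 1.13 with microplastics against control, adjusted p = 0.0616, and 1.57 with an adjusted p of 0.0228 by library size only). NOBOX was also called by DESeq2 (1.11, adjusted p = 0.0223) and by limma-voom (1.23, adjusted p = 0.0384). In edgeR it was called with a filter of 5 CPM (adjusted p = 0.048) and in a fit of the 2 groups (adjusted p = 0.0282). Of the 9 fits without 1 library 2 called it, without control 3 (1.69, adjusted p = 0.00697) and without taurine 3 (1.13, adjusted p = 0.0193). It was not called with DESeq2 size factors in edgeR, with no filter or with a replicate block. Without control 3 and taurine 3 together FIGLA was called lower (-0.75, adjusted p = 0.0414).

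Genes that oocyte-secreted factors regulate in cumulus cells were also read, in RNA of oocytes. Of 11 tested 3 fell with microplastics and 8 did not pass, where 14.7% of all genes were lower, and 3 fell by library size only too, where 6.63% of all genes were lower, though VCAN was then not among them (log2 -0.09). GJA1, a gap junction protein, was at 21.8 ± 8.65 CPM with taurine, 12.6 ± 1.76 CPM with microplastics and 33.8 ± 6.15 CPM in control, and fell with microplastics (log2 -1.43, edgeR adjusted p = 0.00525). PTGS2, which makes prostaglandins during cumulus expansion, was at 19.1 ± 4.20, 8.77 ± 0.727 and 21.2 ± 2.15 CPM in the same order, falling with microplastics (log2 -1.27, adjusted p = 0.00191) and rising with taurine relative to microplastics alone (log2 1.12, adjusted p = 0.00572). VCAN, a matrix proteoglycan, fell with microplastics (log2 -0.57, adjusted p = 0.0229), which did not hold on dropping microplastics 1 (-0.50), microplastics 2 (-0.56), microplastics 3 (-0.62), control 1 (-0.58) or control 2 (-0.55). It rose with taurine relative to microplastics alone (log2 0.75, adjusted p = 0.00933), which did not hold without microplastics 1 (0.68) or by library size only (0.32). These 3 genes are also among the 12 tested cumulus and granulosa markers, of which 5 fell and 0 rose with microplastics, against 14.7% and 9.68% of all genes. INHA, with 0 to 2 reads in the microplastics libraries, is counted in those 5. The part of attached cumulus cells in these values was not tested.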

How the data were processed

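RNA of metaphase II oocytes was sequenced in 9 libraries. The table deposited by the authors holds, for 22590 transcripts, an estimated count, an FPKM and a TPM value per library. Which aligner, counter or build made it is not given in the sources used here. A further 9 columns of scaled counts and 12 of group means were not used. Estimated counts were summed per gene ID, rounded and tested. TPM values, made by the authors, were summed per gene for levels and ratios, and the deposited FPKM gave transcript lengths only. RefSeq symbols matched 16995 genes (95.2%).

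Genes were tested with edgeR 4.0.16 in R 4.3.3 (TMM factors of 0.835 to 1.253, minimum count 10, minimum total 15, robust quasi-likelihood fit, 1 coefficient per group over all 9 libraries, adjusted p under 0.05). TMM factors were 0.841 to 0.958 with taurine, 1.214 to 1.253 with microplastics and 0.835 to 0.972 in control. Ratios were compared with SciPy 1.17.1. Pathway genes named are up to 3 risers and 3 fallers per list with microplastics, and BMPR2, BMPR1B, TGFBR1, SMAD2, SMAD3, FURIN, KIT, FIGLA and NOBOX whatever their values. Most-like genes had at least 5 CPM and used log2 CPM with a prior count of 2.

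Members and lists were chosen with earlier results of these data known. The fits were first tested on simulated data. Alternatives were other scalings, filters, DESeq2 1.42.0, limma-voom (3.58.1), fits of 2 groups, a replicate block and leaving out libraries.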

Additional observations from a re-analysis of the deposited data

How the results depend on the processing

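Microplastics minus control called 3213 genes, 4880 by library size only, 5110 without control 3 and taurine 3 together, and 1715 to 4151 with 1 library left out. Over all genes the median was 0.52 by library size only, against 0.04 with TMM, and higher calls made up 82.0%, against 39.8%. Taurine minus microplastics called 1878 genes, 3089 by library size only (median -0.45, against -0.02, and 19.5% of calls higher, against 71.0%), and 888 to 2146 with 1 library left out. Taurine minus control called 1 gene, 0 with a filter of 5 CPM in 3 libraries, 0 in a fit of the 2 groups, 5 by DESeq2, 783 without control 3 and taurine 3 together, and 0 to 2 with 1 library left out.

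For microplastics minus control, GDF9 lost its call by library size only (-0.81), with no filter (-1.32, adjusted p = 0.0597) and in 4 of the fits without 1 library (-1.63 to -0.51 over all 9). SKI and SPRY1 lost their calls with DESeq2 size factors (edgeR adjusted p = 0.0531 and 0.0517). With no filter INHA, TGFBR2, SKI and PIK3CA lost theirs (edgeR adjusted p = 0.0932, 0.0594, 0.0539 and 0.0573). INHA also lost its call by limma-voom (adjusted p = 0.078). BMP6 was called by library size only (1.06), with a filter of 5 CPM (0.63), by DESeq2 (0.55), by limma-voom (0.58), in a fit of the 2 groups (0.58), without control 3 and taurine 3 together (0.63) and at an adjusted p under 0.1 (0.58), and stood at 0.53 to 0.66 with 1 library left out. NOBOX was called under the same alternatives as BMP6, and stood at 0.92 to 1.69 with 1 library left out. For taurine minus microplastics, OOSP2 lost its call by library size only (0.31) and ranged from 0.57 to 0.87 with 1 library left out. SKI lost its call with no filter (-0.71, edgeR adjusted p = 0.054). BMP6 was called by library size only (-1.01), with a filter of 5 CPM (-0.62), without control 3 and taurine 3 together (-0.76) and at an adjusted p under 0.1 (-0.57), and ranged from -0.75 to -0.38 with 1 library left out.

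Signs changed for values that were not called. By library size only these were BMP15 (0.13), KIT (0.19) and FIGLA (0.007) for microplastics minus control, and GDF9 (-0.087), BMP15 (-0.16), TGFBR2 (-0.38), TGFBR1 (-0.40) and LHX8 (-0.14) for taurine minus microplastics. For microplastics minus control TGFBR1 was -0.005 with DESeq2 size factors, -0.004 by DESeq2 and -0.10 without control 3 and taurine 3 together, and BMPR2 was 0.00 by DESeq2. With 1 library left out TGFBR1 ranged from -0.10 to 0.185 and BMPR2 from -0.055 to 0.121. For taurine minus microplastics KIT was 0.002 with DESeq2 size factors and by DESeq2 and 0.036 without control 3 and taurine 3 together, TGFBR1 and TGFBR2 were -0.014 with a filter of 5 CPM, and TGFBR1 was -0.028 without control 3 and taurine 3 together. With 1 library left out BMPR2 ranged from -0.467 to 0.036, KIT from -0.192 to 0.11, TGFBR1 from -0.132 to 0.234 and TGFBR2 from -0.178 to 0.203. For taurine minus control BMP6 was -0.005 with DESeq2 size factors and by DESeq2, -0.021 by limma-voom, -0.13 without control 3 and taurine 3 together and -0.17 to 0.21 with 1 library left out, KITLG was 0.33 without control 3 and taurine 3 together and -0.63 to 0.13 with 1 library left out, and BMP15 was -0.26 to 0.12. Log2 ratios with 1 library left out ranged, for GDF9 over BMP15, from -0.067 to 0.232 (taurine minus microplastics) and -1.005 to 0.003 (taurine minus control), and for OOSP2 over GDF9 from -0.566 to 0.172 (microplastics minus control) and -0.19 to 0.548 (taurine minus control).

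Libraries of the same number were not paired by the labels, and deviations from group means correlated at 0.05, 0.18 and 0.26 for microplastics and control, and at -0.44 to 0.02 for pairs with taurine. Each microplastics library correlated most with the control library of its own number. No taurine library correlated most with the library of its number in either other group. Whether libraries were paired was not tested. With a replicate block GDF9 was not called (-1.16, adjusted p = 0.0682) and taurine minus control had 0 calls, and INHA, SKI, SPRY1, FOXO3 and PIK3CA lost their calls for microplastics minus control, as did SKI and PIK3CA for taurine minus microplastics. The causes of these changes were not tested. Depth limits FGF8, with 0 to 5 reads in each library, and INHA in the microplastics libraries, with 0 to 2 reads.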
